A study of Mus musculus with 4 samples.

Results

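The digestive enzyme genes of the exocrine pancreas, with their regulators and granule proteins, were followed through 4 RNA-seq libraries of sorted mouse β cells. The members were a list of 31 gene symbols, and 30 of them were found as rows among the 51912 genes of the table. Spink3 had no row of its own, because current annotation lists that name as a synonym of Spink1, which is also a member. The 30 genes comprised 13 proteases, 5 lipases including the lipase cofactor, 4 amylases, 3 transcription factors, 1 trypsin inhibitor and 4 proteins of the secretory granule. All 30 passed the filter on low counts, at least 10 counts in at least 2 libraries.

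The study asked what happens in β cells that lack the Roundabout receptors Robo1 and Robo2, which bind Slit ligands and guide cell position. Islets were isolated from neonates at day 13, dissociated, and sorted by flow cytometry for nuclear mCherry. The 2 Robo mutant libraries were Robo1delta/delta and Robo2flx/flx, and the 2 control libraries were Robo1+/+ and Robo2+/+. Both genotypes also carried Rosa26-lsl-H2B-mCherry/+ and Ucn3-Cre/+, so that mCherry marks cells in which the Ucn3 promoter, active in maturing β cells, has driven Cre. The Robo1 allele does not depend on Cre, whereas Robo2 is removed only where Ucn3-Cre acts. Separate animals or pools are not stated as the origin of the libraries of a genotype, so p-values here measure only the spread between libraries. Replicate numbers follow the order of deposition and pair nothing.

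Acinar cells make up most of the pancreas and surround the islets. They synthesise digestive proteases and lipases largely as inactive precursors, pack them with amylase into zymogen granules, and release them into the ducts. Their enzyme genes are switched on together by the PTF1 complex, in which the basic helix-loop-helix protein Ptf1a pairs with Rbpjl and binds an E-box next to a TTTCCC box, while Bhlha15, also called Mist1, builds the secretory apparatus. β cells make none of these enzymes in textbook accounts, which is why acinar messages in an islet preparation are usually read as markers of exocrine tissue.

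The libraries held 49593712 and 47788000 counts in Robo mutants 1 and 2, and 48217557 and 38886129 counts in controls 1 and 2. Levels are given as CPM, counts scaled to the library total after TMM, a factor that aligns the bulk of genes between libraries. The targeted genes checked the labels: Robo1 had 22.3 and 21.01 CPM in Robo mutants 1 and 2, against 48.5 and 104 CPM in controls 1 and 2, and Robo2 had 32.7 and 25.6 CPM in Robo mutants 1 and 2, against 75.2 and 118 CPM in controls 1 and 2. The 10 β cell markers were abundant and summed to 227395 and 160199 CPM in Robo mutants 1 and 2. In controls 1 and 2 they summed to 231264 and 197535 CPM. The alpha cell hormone gene Gcg was abundant too. It ranked 4 and 3 among all genes in Robo mutants 1 and 2, against 4 and 5 in controls 1 and 2. The purity of the sort was not measured.

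Acinar messages were found in all 4 libraries, at very unequal levels. The 30 genes took 0.523% and 9.25% of all counts in Robo mutants 1 and 2, against 1.04% and 0.132% in controls 1 and 2. In Robo mutant 2 the 95% Wilson interval of that share ran from 9.24% to 9.25%, and it covers counting error only. Ins1 and Ins2 together took 20.02% and 12.75% of counts in Robo mutants 1 and 2, against 20.01% and 17.51% in controls 1 and 2. The 2 libraries of each genotype therefore lay far apart: Robo mutant 2 was 18.7-fold above Robo mutant 1 in summed member CPM, and control 1 was 8.26-fold above control 2. The genotypes overlapped, since Robo mutant 1 lay at 0.498 times the level of control 1 and at 4.11 times that of control 2. In bulk libraries, more cells of a type and more RNA per cell cannot be told apart, and which cells held these messages was not measured.

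**Figure D1:**
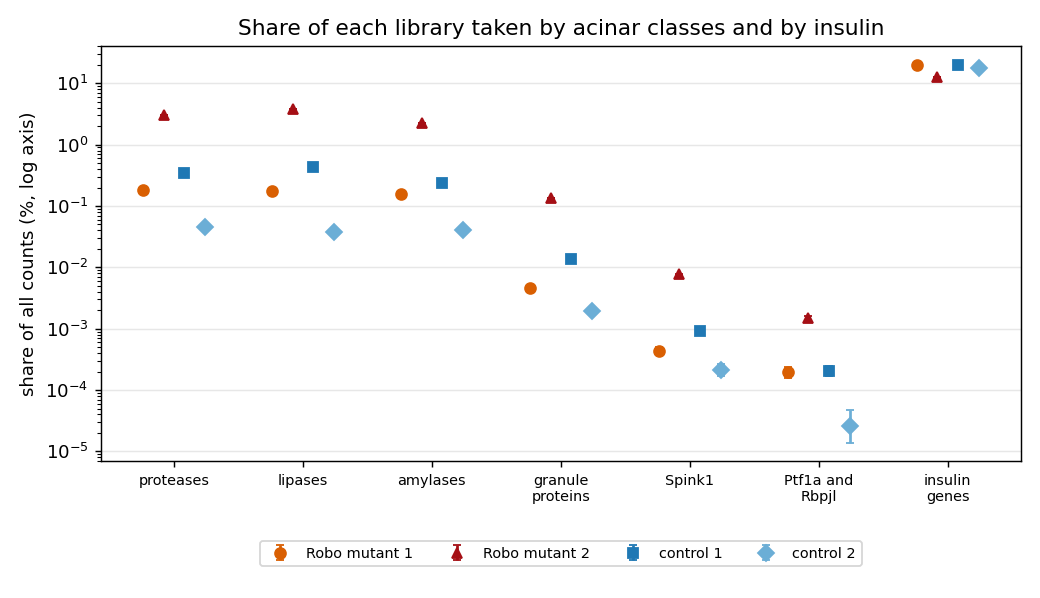
Share of all counts (%, log axis) taken by each class of acinar genes and by Ins1 and Ins2, 1 point a library with its 95% Wilson interval, Robo mutants left of controls and Bhlha15 left out of the transcription factors. Robo mutant 2 is highest and control 2 lowest in all 6 acinar classes drawn, while the insulin genes lie between 12.75% and 20.02% in all 4 libraries.

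Ranking all genes by counts placed the enzymes among the most abundant messages of Robo mutant 2. Pnliprp1 ranked 5 in that library, and 15 members were among its top 50 genes. Robo mutant 1 had 1 member in its top 50, against 2 in control 1 and none in control 2. In control 2 the most abundant member was Amy2a5, at rank 361. Expressed per length of the longest coding transcript, the leaders in Robo mutant 2 were Pnliprp1 at 22679 TPM (a scale corrected for transcript length), Amy2a1 at 15905 TPM, Ctrb1 at 12297 TPM and Cel at 12223 TPM. The place of Amy2a1 rests on its annotated length of 890 bases, against 3715 for Amy2a5. In Robo mutant 2 Amy2a5 had 4410 TPM, but by CPM it was above Amy2a1, at 9526 against 8232 CPM. The low end of the TPM scale held Ptf1a at 2.93 TPM, Pnlip at 3.41 TPM and Cela3a at 1.07 TPM.

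Nearly all members ranked the libraries in the same order. For 24 of the 30 the order of CPM was Robo mutant 2, control 1, Robo mutant 1, control 2. Robo mutant 2 was highest for 28 members, which is 93.3% of them, against 28.7% of the 16517 genes tested. Control 2 was lowest for 27 members. Of the tested genes with a count in both mutant libraries, 2.88% were over 5-fold higher in Robo mutant 2 than in Robo mutant 1. Among the 29 members with a count in both, 27 were. The median ratio of Robo mutant 2 over Robo mutant 1 was 20.3, with a range from 0.911 for Bhlha15 to 118 for Amy2a2. Set against control 1 the spread was narrower, at a median of 8.96 and with 22 of 30 members between 6-fold and 12-fold. The median over the tested genes with a count in both libraries was 0.994 for the first of these ratios and 1.00 for the second.

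**Figure D2:**
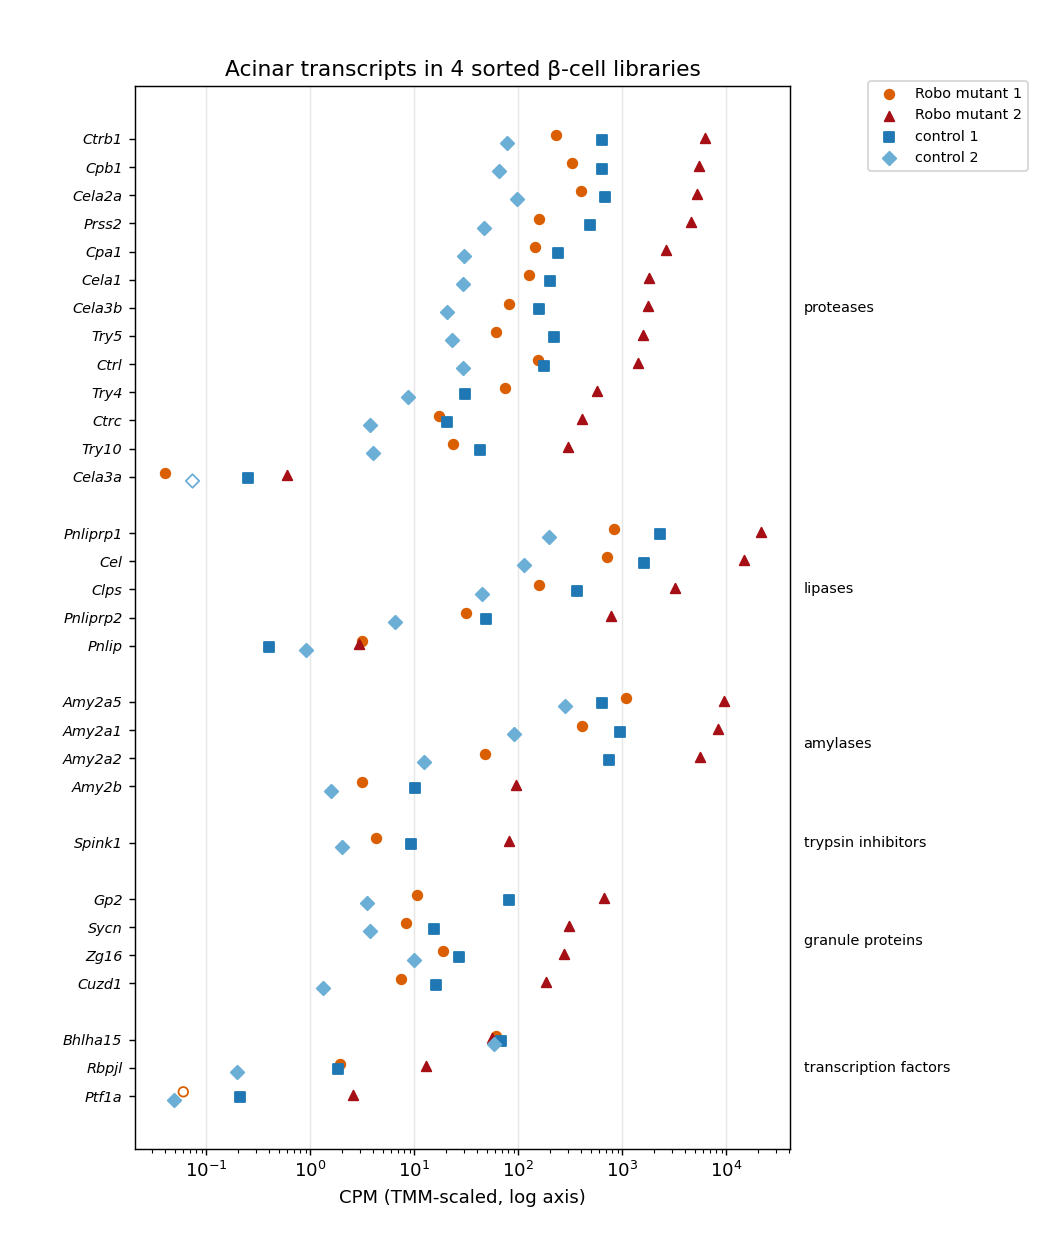
CPM of each of the 30 acinar genes in each library on a log axis, with classes set apart, Robo mutants drawn above controls within a row, and open symbols for libraries with 0 counts placed at the floor of 3 counts. Robo mutant 2 is highest in 28 rows and control 2 lowest in 27, while Bhlha15 lies at 55.4 to 68.6 CPM in all 4 libraries.

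The sequences upstream of these genes are shown because the members varied together across libraries and because the PTF1 complex reads a fixed pair of boxes. Promoter entries from RefSeq (GRCm38.p6) were matched by symbol for 24 of the 30 members, with none for Clps, Ctrc, Spink1, Try5, Try10 and Zg16. The 250 bases before each start were searched on both strands for CACCTG and CAGCTG (E-boxes), TTTCCC, and AAGGTCA, the half-site of Nr5a2-type receptors; overlapping matches were allowed. An E-box of either kind lay in 16 of the 24 windows, or 66.7%, against 27.4% of all 27025 promoters. TTTCCC lay in 7 windows, or 29.2%, against 21.9% of all promoters. Both boxes were present in 6 of the 24 windows, against 5.86% of all promoters. A joined form, CANNTG followed by any 4 bases and then TTTCCC, was in 2 member windows, those of Ctrb1 and Cela1, and in 23 promoters of all 27025, or 0.0851%. Each window below runs 5′ to 3′ on the strand of its gene and ends at the base before the RefSeq start, with matches in capitals. They are Ctrb1 at chr8:111691011-111691260, minus strand, Cela1 at chr15:100687921-100688170, minus strand, Amy2a5 at chr3:113258700-113258949, minus strand, Pnliprp1 at chr19:58728637-58728886, plus strand, and Bhlha15 at chr5:144190036-144190285, plus strand.
Ctrb1: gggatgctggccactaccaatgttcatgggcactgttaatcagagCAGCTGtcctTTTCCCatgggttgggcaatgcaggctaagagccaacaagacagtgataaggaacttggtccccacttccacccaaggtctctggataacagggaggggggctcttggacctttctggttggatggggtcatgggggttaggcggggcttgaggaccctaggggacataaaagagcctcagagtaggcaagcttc
Cela1: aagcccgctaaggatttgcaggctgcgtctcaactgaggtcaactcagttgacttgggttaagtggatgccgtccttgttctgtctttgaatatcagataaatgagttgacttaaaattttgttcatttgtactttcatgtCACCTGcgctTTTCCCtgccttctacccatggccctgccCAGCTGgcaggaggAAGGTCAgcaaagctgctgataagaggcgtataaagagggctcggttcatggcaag
Amy2a5: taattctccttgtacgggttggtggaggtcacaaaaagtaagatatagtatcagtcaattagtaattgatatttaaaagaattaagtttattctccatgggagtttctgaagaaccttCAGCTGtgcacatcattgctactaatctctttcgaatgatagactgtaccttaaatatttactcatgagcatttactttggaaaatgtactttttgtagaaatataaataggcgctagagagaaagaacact
Pnliprp1: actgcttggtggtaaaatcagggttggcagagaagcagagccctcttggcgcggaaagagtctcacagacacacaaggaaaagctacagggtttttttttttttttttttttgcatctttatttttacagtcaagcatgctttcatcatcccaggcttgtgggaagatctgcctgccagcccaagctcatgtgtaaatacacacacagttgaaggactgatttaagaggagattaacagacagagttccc
Bhlha15: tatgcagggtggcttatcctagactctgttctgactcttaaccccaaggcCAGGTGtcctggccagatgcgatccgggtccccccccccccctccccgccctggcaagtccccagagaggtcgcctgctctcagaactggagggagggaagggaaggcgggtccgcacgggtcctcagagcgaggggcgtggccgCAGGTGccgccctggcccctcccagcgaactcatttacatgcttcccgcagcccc
The joined site begins 205 bases before the start in Ctrb1, as CAGCTGtcctTTTCCC, and 109 bases before it in Cela1, as CACCTGcgctTTTCCC. Cela1 also holds a second E-box and the AAGGTCA half-site. The Amy2a5 window holds a single CAGCTG, and the window of Bhlha15, the 1 member whose level hardly varied, holds 2 copies of CAGGTG, the reverse strand of CACCTG. None of the 4 sets of letters was in the window of Pnliprp1, the most abundant member in Robo mutant 2. A match is a description of the letters and not a bound site.

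The carboxypeptidases cut single residues from the end of dietary peptides. Cpa1, which removes aromatic and aliphatic residues (ENSMUSG00000054446; GRCm38 chromosome 6, 30639218 to 30645363, plus strand), had 143 and 2602 CPM in Robo mutants 1 and 2, against 242 and 29.8 CPM in controls 1 and 2. Cpb1, which removes basic residues, had 325 and 5506 CPM in Robo mutants 1 and 2, against 630.1 and 64.7 CPM in controls 1 and 2. In both genes Robo mutant 1 lay below control 1 and above control 2, so the genotypes overlapped. The log2 difference of Robo mutants over controls was 3.34 ± 1.69 (SE) for Cpa1 and 3.07 ± 1.70 (SE) for Cpb1, and without Robo mutant 2 it was 0.078 for Cpa1 and -0.10 for Cpb1.

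Trypsinogens are the precursors of trypsin, which cuts after lysine and arginine and activates the other zymogens. Prss2, the most abundant trypsinogen here (ENSMUSG00000057163; GRCm38 chromosome 6, 41521787 to 41525079, plus strand), had 158 and 4579.7 CPM in Robo mutants 1 and 2, against 484 and 46.7 CPM in controls 1 and 2. Try5 had 60.6 and 1569.7 CPM in Robo mutants 1 and 2, against 222 and 22.8 CPM in controls 1 and 2. Try10 was lower, at 23.7 and 297 CPM in Robo mutants 1 and 2, against 42.9 and 3.997 CPM in controls 1 and 2. These 3 genes kept the common order of libraries, and without Robo mutant 2 their log2 differences were -0.75 for Prss2, -1.02 for Try5 and 0.015 for Try10. Try4 did not: it had 74.1 and 568 CPM in Robo mutants 1 and 2, against 31.0 and 8.78 CPM in controls 1 and 2, so that both mutant libraries lay above both controls. The log2 difference of Try4 was 4.01 ± 1.23 (SE), and its adjusted p by edgeR's quasi-likelihood test was 0.695; without Robo mutant 2 the difference was 1.90.

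The trypsinogens of mouse lie in 1 tandem cluster on chromosome 6, and their transcripts are alike enough for reads to be shared. Try4 and Try5 are 97.1% identical over 801 bases in GENCODE M21, and Prss2 and Try4 are 89.4% identical. RSEM, one of the tools named for this table, divides reads that match several transcripts by estimation. Try4 held 17.5% and 6.04% of the trypsinogen counts in Robo mutants 1 and 2, against 2.84% and 7.27% in controls 1 and 2. The ratio of Try4 to Try5 was 1.22 and 0.362 in Robo mutants 1 and 2, against 0.139 and 0.385 in controls 1 and 2. The values of single trypsinogens are therefore uncertain. Of 8 further trypsinogen copies in the cluster, 6 had enough counts to test, 5 were higher and 1 lower in Robo mutants by log2 difference, with a median of 2.81, and none passed the test.

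Some of the elastases cut after small residues. Cela2a had 402 and 5263 CPM in Robo mutants 1 and 2, against 678 and 96.6 CPM in controls 1 and 2, the highest level of this family. Cela1, whose promoter carries the joined E-box and TTTCCC site, had 126 and 1784 CPM in Robo mutants 1 and 2, against 201 and 29.6 CPM in controls 1 and 2. Cela3b had 81.1 and 1749 CPM in Robo mutants 1 and 2, against 158 and 20.6 CPM in controls 1 and 2. All 3 kept the common order, with log2 differences of 2.87 for Cela2a, 3.05 for Cela1 and 3.36 for Cela3b, which without Robo mutant 2 were 0.056, 0.13 and -0.13 in the same order of genes. Cela3a, 89.5% identical to Cela3b over the shorter transcript, was close to absent at 2 and 27 counts in Robo mutants 1 and 2, against 12 and 0 counts in controls 1 and 2.

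The chymotrypsins cut after large hydrophobic residues. Ctrb1, the main chymotrypsinogen and the other gene with the joined site, had 229 and 6278 CPM in Robo mutants 1 and 2, against 632 and 77.3 CPM in controls 1 and 2. Ctrl, a chymotrypsin-like protease, had 156 and 1421 CPM in Robo mutants 1 and 2, against 175 and 29.6 CPM in controls 1 and 2. Ctrc, known in human pancreas to degrade trypsinogen, had 17.4 and 406 CPM in Robo mutants 1 and 2, against 20.6 and 3.78 CPM in controls 1 and 2. Its log2 difference of 4.11 ± 1.72 (SE) was the largest of the 30, its levels still overlapped between genotypes, and without Robo mutant 2 it was 0.51. The annotated span of Ctrc in GENCODE M21 runs across Cela2a on the same strand, so part of the reads of either gene could have been assigned to the other. As a family the 13 proteases summed to 1796 and 32025 CPM in Robo mutants 1 and 2, against 3517 and 434 CPM in controls 1 and 2.

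The lipase class held the single most abundant member. Pnliprp1, a relative of pancreatic lipase with little known activity on triglycerides (ENSMUSG00000042179; GRCm38 chromosome 19, 58728887 to 58744169, plus strand), had 833 and 21352 CPM in Robo mutants 1 and 2, against 2297 and 195 CPM in controls 1 and 2. Cel, the bile salt-stimulated lipase that also splits cholesterol esters, had 705 and 14664 CPM in Robo mutants 1 and 2, against 1627 and 114 CPM in controls 1 and 2. Clps, the colipase that anchors pancreatic lipase to fat droplets, had 158 and 3235 CPM in Robo mutants 1 and 2, against 363 and 44.95 CPM in controls 1 and 2. Pnliprp2, which also acts on galactolipids, was lower at 31.2 and 777 CPM in Robo mutants 1 and 2, against 48.8 and 6.57 CPM in controls 1 and 2. Without Robo mutant 2 the log2 difference was -0.58 for Pnliprp1, against 3.15 with it. These 4 genes kept the common order, and the 5 genes of the class summed to 1731 and 40031 CPM in Robo mutants 1 and 2, against 4337 and 362 CPM in controls 1 and 2.

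Pnlip, the classical triglyceride lipase of the adult pancreas, followed another pattern. It had 157 and 134 counts in Robo mutants 1 and 2, against 19 and 37 counts in controls 1 and 2, or 3.14 and 2.95 CPM in Robo mutants 1 and 2, against 0.397 and 0.907 CPM in controls 1 and 2. It was the only member highest in Robo mutant 1, and the only member lowest in control 1. Relative to Pnliprp1 in the same library, Pnlip stood at 0.377% and 0.0138% in Robo mutants 1 and 2, against 0.0173% and 0.464% in controls 1 and 2. In rat, Pnliprp1 and Pnliprp2 are known to be abundant around birth and Pnlip to come on around weaning, which is background and was not examined here. Its log2 difference was 2.22 ± 0.82 (SE) with an adjusted p of 0.804 by edgeR's quasi-likelihood test, and both mutant libraries lay above both controls.

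The amylases split starch and form a tandem cluster on chromosome 3 (GRCm38). Amy2a5 (ENSMUSG00000074268; chromosome 3, 113247178 to 113258837, minus strand) had 1092 and 9526 CPM in Robo mutants 1 and 2, against 641 and 283 CPM in controls 1 and 2, with both mutants above both controls and a log2 difference of 3.52 ± 1.15 (SE), adjusted p 0.741 by edgeR's quasi-likelihood test, and 1.24 without Robo mutant 2. Amy2a1 had 406 and 8232 CPM in Robo mutants 1 and 2, against 948 and 90.3 CPM in controls 1 and 2. Amy2a2 varied more between libraries than any other enzyme, at 47.7 and 5632 CPM in Robo mutants 1 and 2, against 750.4 and 12.4 CPM in controls 1 and 2. Its log2 difference was 2.90 ± 2.57 (SE), and -3.00 without Robo mutant 2. Amy2b, which GENCODE M21 annotates as an unprocessed pseudogene, had 3.14 and 94.2 CPM in Robo mutants 1 and 2, against 10.1 and 1.57 CPM in controls 1 and 2. The 4 members summed to 1548 and 23485 CPM in Robo mutants 1 and 2, against 2350 and 387 CPM in controls 1 and 2.

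The split between amylase copies was not the same in all libraries. The transcripts of Amy2a2, Amy2a3 and Amy2a4 are identical over 3717 bases in GENCODE M21, and that of Amy2a5 is 98.4% identical to them. Each of these 3 had the same count within a library in Robo mutant 1 (2385), in control 1 (35941) and in control 2 (504), and in Robo mutant 2 they had 256239, 269947 and 269098 counts. Amy2a5 took 66.4% and 26.96% of the counts of 6 amylase copies in Robo mutants 1 and 2, against 16.7% and 68.7% in controls 1 and 2. The 3 identical copies together, set against Amy2a5, stood at 0.131 and 1.83 in Robo mutants 1 and 2, and at 3.51 and 0.131 in controls 1 and 2. Amy2a1 took a steadier 21.9% to 24.7% in all 4 libraries. Its annotated transcript of 890 bases is 99.9% identical to those of Amy2a2, Amy2a3, Amy2a4 and Amy2a5, so its share is also an estimate. Amy2a5 thus held the larger part in Robo mutant 1 and control 2 and a smaller part in Robo mutant 2 and control 1. The 6 copies summed to 1644 and 35333 CPM in Robo mutants 1 and 2, against 3851 and 412 CPM in controls 1 and 2. The ratio was thus higher in the 2 libraries with more amylase. Within that pair it was higher in control 1, which held less amylase than Robo mutant 2. With Amy2a3 and Amy2a4 added after the data were seen, the amylase sum of Robo mutants over controls was 8.67-fold, against 9.15-fold without them. With all 6 copies Robo mutant 1 lay below the control mean, at 1644 against 2131 CPM. With the 4 members it lay above the control mean, at 1548 against 1369 CPM.

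**Figure D3:**
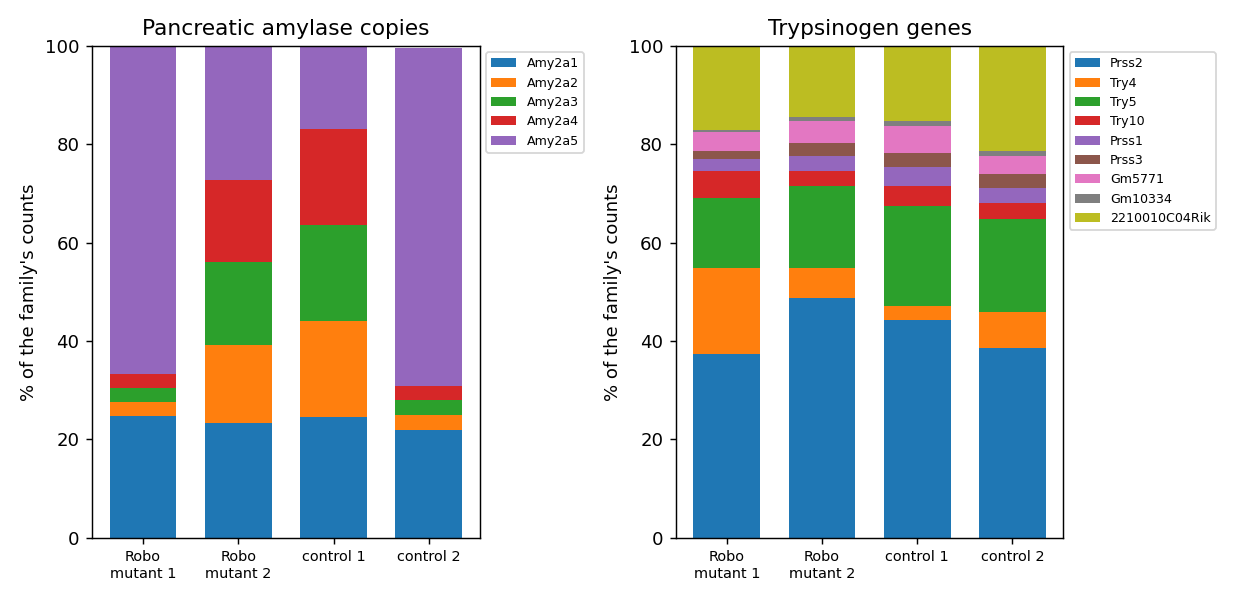
Stacked shares (% of the counts of the family) of the amylase copies and of the trypsinogen genes in each library, Robo mutants left of controls; copies with very small shares are not drawn. Amy2a5 is 66.4% and 68.7% of amylase counts in Robo mutant 1 and control 2 but 26.96% and 16.7% in Robo mutant 2 and control 1, while Prss2 leads the trypsinogens at 37.3% to 48.7% in all 4.

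Spink1 blocks trypsin that becomes active too early. It had 4.30 and 80.8 CPM in Robo mutants 1 and 2, against 9.21 and 2.01 CPM in controls 1 and 2, in the common order and far below the trypsinogens it inhibits. The log2 difference was 2.92 ± 1.53 (SE), and -0.38 without Robo mutant 2.

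The granule proteins line or fill the zymogen granule. Gp2, the main glycoprotein of its membrane, had 10.6 and 663 CPM in Robo mutants 1 and 2, against 81.4 and 3.53 CPM in controls 1 and 2. Sycn, syncollin of the inner granule membrane, had 8.22 and 306 CPM in Robo mutants 1 and 2, against 15.4 and 3.73 CPM in controls 1 and 2. Zg16, a granule lectin, had 18.8 and 272 CPM in Robo mutants 1 and 2, against 26.9 and 9.93 CPM in controls 1 and 2. All 3 kept the common order of libraries, as did Cuzd1, a protein of the granule membrane, which had 7.36 and 184 CPM in Robo mutants 1 and 2, against 16.2 and 1.32 CPM in controls 1 and 2. Gp2 varied more steeply than Cpa1: relative to Cpa1 in the same library it stood at 7.39% and 25.5% in Robo mutants 1 and 2, against 33.6% and 11.8% in controls 1 and 2. The log2 difference of Gp2 was 2.99 ± 2.22 (SE), and -2.003 without Robo mutant 2. In GENCODE M21, 10 of the 30 members share part of their span with another gene; Samd4b lies opposite Sycn, with 4068 and 3161 counts in Robo mutants 1 and 2, against 3257 and 2980 counts in controls 1 and 2, and Matn4 lies opposite Rbpjl. The library kit marks no strand, so strand cannot separate reads from bases that both genes of an opposite pair share. How far the transcripts of such pairs overlap was not examined.

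The transcription factors did not behave as 1 group. Ptf1a had few reads, at 0 and 117 counts in Robo mutants 1 and 2, against 10 and 2 counts in controls 1 and 2, nearly all of them in Robo mutant 2. Rbpjl, its partner in adult acinar cells, had 1.92 and 12.9 CPM in Robo mutants 1 and 2, against 1.86 and 0.196 CPM in controls 1 and 2, and both mutant libraries lay above both controls although Robo mutant 1 and control 1 differed by little. Bhlha15 had 60.8 and 55.4 CPM in Robo mutants 1 and 2, against 68.6 and 57.8 CPM in controls 1 and 2, the only member highest in a control library. The ratio of Robo mutant 2 over Robo mutant 1 was 0.911 for Bhlha15, against 18.1 for Cpa1. Bhlha15 thus did not follow the enzymes it accompanies in acinar cells: relative to Cpa1 it stood at 42.4% and 2.13% in Robo mutants 1 and 2, against 28.3% and 194% in controls 1 and 2. Its log2 difference was -0.12 ± 0.15 (SE).

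**Figure D4:**
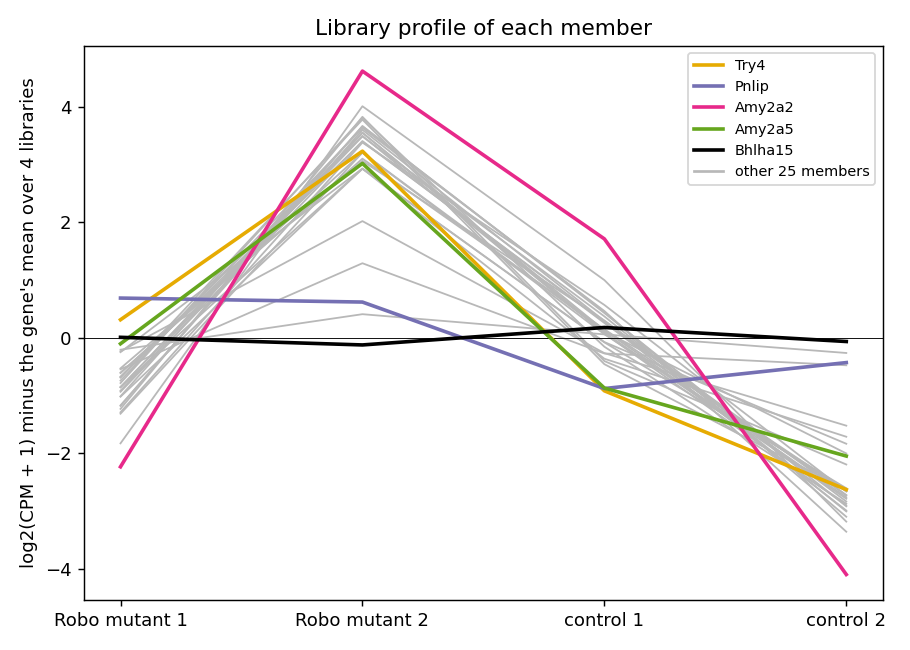
Profiles of the 30 acinar genes over the 4 libraries, as log2(CPM + 1) minus the mean of the gene over the 4 libraries, 1 line a gene, Robo mutants left of controls. The median over genes stands at -0.76 in Robo mutant 1 and 3.39 in Robo mutant 2, against 0.10 in control 1 and -2.66 in control 2, and Bhlha15 and Pnlip depart from it.

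The make-up of the acinar signal varied less than its size. Proteases were 34.6% and 33.0% of member counts in Robo mutants 1 and 2, against 33.7% and 34.4% in controls 1 and 2. Lipases were 33.4% and 41.2% in Robo mutants 1 and 2, against 41.6% and 28.7% in controls 1 and 2. Amylases were 29.8% and 24.2% in Robo mutants 1 and 2, against 22.5% and 30.7% in controls 1 and 2. Robo mutant 2 and control 1 were thus the closest pair in the share of lipases. As a description over the 30 genes, which share libraries and depth and are not replicates, Pearson's r of log2(CPM + 1) was 0.967 between Robo mutant 2 and control 1 and 0.973 between Robo mutant 1 and control 2, against 0.917 between the 2 mutants and 0.924 between the 2 controls.

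Robo mutants against controls were compared with edgeR's quasi-likelihood test over 16517 genes. None of the 30 acinar genes passed an adjusted p of 0.05, and neither did any other gene (0% called, smallest adjusted p 0.680). Before adjustment, 3 of the 30 had p under 0.05, namely Try4, Amy2a5 and Pnlip, or 10.0% against 6.21% of all genes. DESeq2 called 151 genes, or 0.914%, and again no acinar gene, with 7 of the 30 under 0.05 before adjustment against 7.32% of all genes. With no filter on low counts, 15 members had p under 0.05 before adjustment by edgeR, against 5.27% of all genes, and without Robo mutant 1 there were 26, against 19% of all genes; no member passed after adjustment. By log2 difference 29 members were higher in Robo mutants and Bhlha15 was lower, against 48.7% of all genes higher, and the median was 3.06 against -0.013 over all genes tested. Both mutant libraries lay above both controls for 4 members (Try4, Amy2a5, Rbpjl and Pnlip), or 13.3% against 16.1% of all genes, and for no member did both lie below, against 20.4%. With 2 libraries a genotype, no exact two-sided permutation p can fall under 0.333.

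The size of the difference rested on Robo mutant 2. Without that library 28 members could be tested, the median log2 difference was -0.12, 12 members were higher and 16 lower in the remaining mutant, and 15 of the 28 had the opposite sign to that in all 4 libraries. Pnliprp1 was at -0.58, Cel at -0.30 and Ctrb1 at -0.63 without it. Whichever library was left out, Try4 stayed at 1.90 or more, Amy2a5 at 1.24, Pnlip at 1.74 and Rbpjl at 0.90. In these 4 members both mutant libraries lay above both controls, so their sign was largely fixed in advance. Other members kept their sign too, such as Ctrl and Ctrc. Try4 and Amy2a5 are single copies of families with alike transcripts, among which reads are divided by estimation. Summed over the 6 amylase copies, Robo mutant 1 lay at 0.427 times control 1. For the 4 trypsinogens among the members it lay at 0.406 times control 1. The part of that division in the values of Try4 and Amy2a5 was not tested. Without control 1 the median was 5.36, over 28 members. The stated folds of summed CPM, 8.56 for proteases, 8.89 for lipases and 9.15 for amylases, were each smaller than the ratio of the 2 mutant libraries to each other, which was 17.8 for proteases, 23.1 for lipases and 15.2 for amylases.

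**Figure D5:**
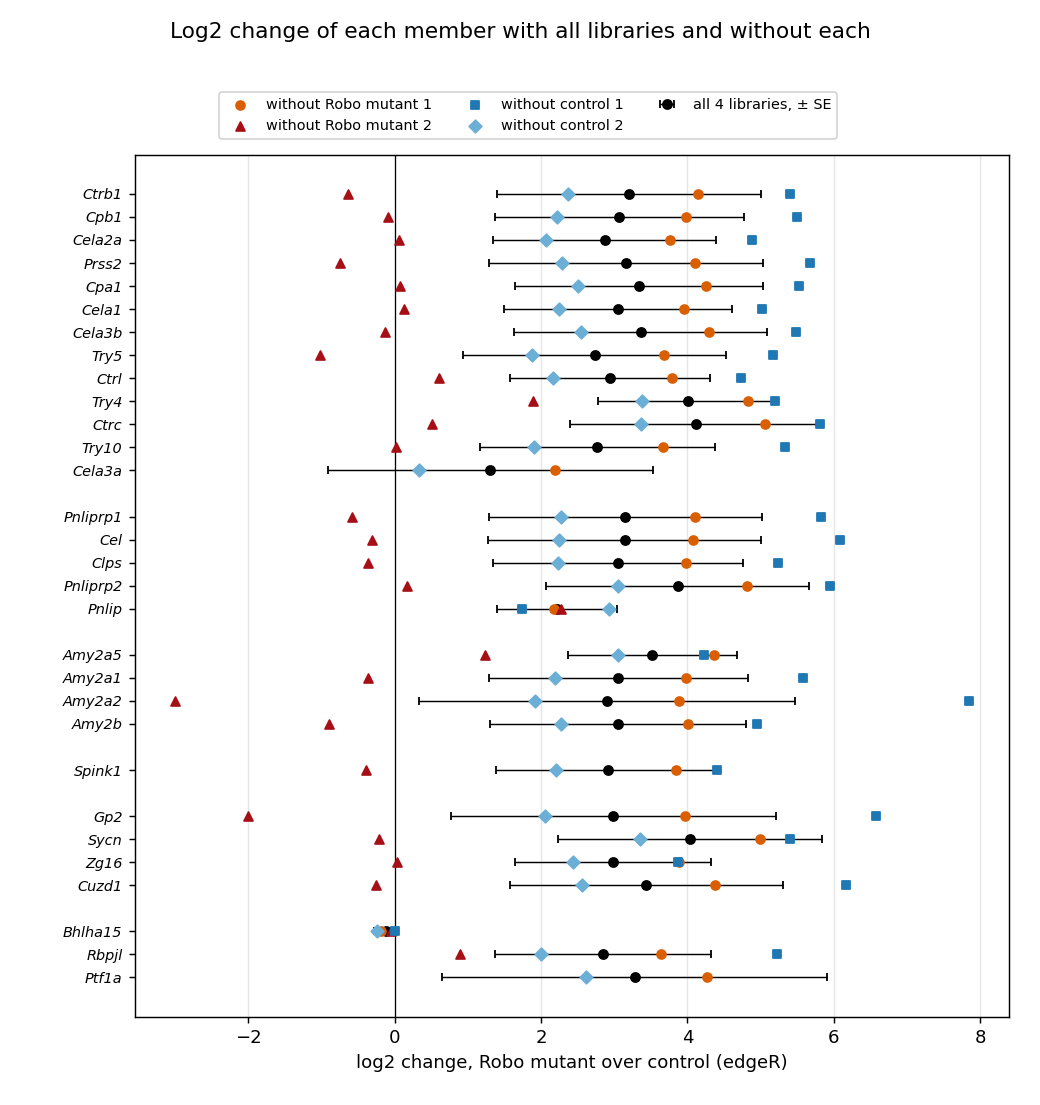
Log2 difference of Robo mutants over controls for each acinar gene in all 4 libraries, as black points with standard errors, and with each library left out in turn as coloured symbols. With all libraries 29 genes lie above 0, and without Robo mutant 2 the genes lie on both sides of 0 with 16 below.

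Other genes that acinar cells express were counted from a list of 27, of which 26 were found and 25 could be tested. Of these, 20 were higher and 5 lower in Robo mutants, the median log2 difference was 2.02, none passed the test, and 18 were highest in Robo mutant 2. Values are given for 3 of the most abundant, Rnase1, Dmbt1 and Rab3d. Rnase1, the pancreatic ribonuclease, had 123 and 1844 CPM in Robo mutants 1 and 2, against 177 and 24.5 CPM in controls 1 and 2. Dmbt1, a secreted mucin-like protein, had 22.1 and 1150.4 CPM in Robo mutants 1 and 2, against 29.3 and 3.38 CPM in controls 1 and 2, a log2 difference of 5.16 that was larger than that of any member. Rab3d, a small GTPase of secretory granules, had 278 and 191 CPM in Robo mutants 1 and 2, against 282 and 269 CPM in controls 1 and 2 and, like Bhlha15, did not follow the enzymes.

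Of the marker lists for other cells, the 5 alpha cell markers alone ranked the libraries as the acinar genes did, at 19262 and 24101 CPM in Robo mutants 1 and 2, against 23780 and 11882 CPM in controls 1 and 2. The 6 stromal markers summed to 831 and 11.0 CPM in Robo mutants 1 and 2, against 1837 and 550 CPM in controls 1 and 2, with Col1a1, Pdgfrb and Rgs5 at 0 in Robo mutant 2, the library richest in acinar messages. The 7 duct markers, the other exocrine cell type, summed to 489 and 523 CPM in Robo mutants 1 and 2, against 477 and 564 CPM in controls 1 and 2, and Cftr was at 0 in all 4. Krt7 made up most of that sum, with 404 and 387 CPM in Robo mutants 1 and 2, against 409.7 and 432 CPM in controls 1 and 2. Muc1 alone of the 7 was over 5-fold higher in Robo mutant 2 than in Robo mutant 1, with 2.06 and 32.3 CPM in Robo mutants 1 and 2, against 2.76 and 8.63 CPM in controls 1 and 2. Krt19 was also highest in Robo mutant 2, with 11.997 and 31.2 CPM in Robo mutants 1 and 2, against 10.2 and 23.7 CPM in controls 1 and 2. The 5 endothelial markers summed to 0.880 and 0.176 CPM in Robo mutants 1 and 2, against 0.960 and 11.0 CPM in controls 1 and 2, with Kdr and Flt1 at 0 in both mutants and in control 1, and Cdh5 at 0 in both mutants. The 4 immune markers summed to 17.7 and 23.0 CPM in Robo mutants 1 and 2, against 14.4 and 2.28 CPM in controls 1 and 2, and so were lowest, like the enzymes, in control 2. The part of these cells in the acinar values was not tested.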

How the data were processed

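Islet β cells sorted for mCherry were profiled with SMART-Seq v4 and Nextera XT, which keep no strand information, per the labels' protocols. The authors deposited 1 table of estimated counts per gene (the expected counts RSEM makes, here whole numbers), with STAR and RSEM among the tools per the submitters' processing notes. Its name calls it normalized, but column totals differ by up to 1.28-fold and low counts show no gaps, so the values were treated as rounded counts. The submitters' processing notes name bcl2fastq 2.20.0.422, STAR 2.5.3a, RSEM 1.3.0, edgeR 3.16.5 and GRCm38; which tool did which step, and with what gene annotation, is not stated. Genes reaching 10 counts in 2 or more libraries were tested in R 4.3.3 with edgeR 4.0.16 (TMM, quasi-likelihood test, two-sided, Benjamini-Hochberg adjustment over 16517 genes, threshold 0.05). DESeq2 1.42.0, limma 3.58.1, other scalings, other filters and leaving out each library were alternatives. The fit was tested on simulated counts that varied less between libraries than the real ones, so that test does not show how well changes are found here. Gene IDs were matched to GENCODE M21 for 51633 of 51912 genes, and lengths are those of the longest protein-coding transcript where a gene has one. Every member is named, and of the other acinar genes the 4 with the highest mean CPM, 1 of which is not reported here. The members and lists were chosen with earlier results of these data known. Precision is limited by 2 libraries a genotype.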

Additional observations from a re-analysis of the deposited data

How the results depend on the processing

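No paired analysis was possible because the labels give no replicate numbers. edgeR called 0 genes in all 4 libraries, 1025 having p under 0.05 before adjustment, and leaving out 1 library in turn gave 0 to 1 genes (Gm8797, without Robo mutant 2), whereas DESeq2 called 151. No setting called a member. With DESeq2 size factors, with totals and TMM factors computed without the members and insulin genes, with limma, with no filter and with a filter on the mean count, every tested member kept its direction. With 1 library left out in turn, the log2 ratio of summed CPM ran from -0.14 to 5.29 for proteases. It ran from -0.44 to 5.85 for lipases, 0.18 to 5.02 for the 4 amylases and -0.38 to 4.41 for the trypsin inhibitor. For granule proteins it ran from -0.81 to 5.31, and for transcription factors from -0.078 to 0.20. With Amy2a3 and Amy2a4 added, the amylase sum of Robo mutant 1 lay below the control mean, at 1644 against 2131 CPM. The transcription factor sum was mostly Bhlha15, with 3042 of 3138 counts in Robo mutant 1 and 2521 of 3227 in Robo mutant 2. Ptf1a and Rbpjl alone had a log2 ratio of 2.91 over all 4 libraries, and Robo mutant 2 over Robo mutant 1 was 8.08. The log2 differences that changed sign were those of Cpb1 (-0.095 to 5.50), Prss2 (-0.75 to 5.67), Try5 (-1.02 to 5.16), Cela3b (-0.13 to 5.48), Ctrb1 (-0.63 to 5.40), Pnliprp1 (-0.58 to 5.83), Cel (-0.30 to 6.08), Clps (-0.36 to 5.24), Amy2a1 (-0.36 to 5.58), Amy2a2 (-3.00 to 7.85), Amy2b (-0.90 to 4.95), Spink1 (-0.38 to 4.40), Sycn (-0.22 to 5.40), Gp2 (-2.003 to 6.58) and Cuzd1 (-0.26 to 6.17), all negative without Robo mutant 2, and of Bhlha15 (-0.24 to 0.0091), positive without control 1. Ptf1a and Cela3a could not be fitted without Robo mutant 2 or without control 1, since they then fell under the filter. Where a genotype keeps 1 library, that library is assumed to vary like the other genotype's. The cause of these shifts was not tested. Ptf1a, Cela3a and Pnlip rest on low counts.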

Other observations

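Genes with a mean of at least 10 CPM, 9017 in all and the listed ones included, were ranked by likeness to the members. The measure was how closely the profile over the 4 libraries matched the median profile of the members. Genes named here lie outside the lists and were chosen after their values were seen, and likeness over 4 libraries is a description. Of the 38 closest genes, 36 were acinar genes already listed. Many of these were members, whose own values made the median, so their closeness was partly fixed in advance. Reg1, a secreted lectin of acinar cells, ranked 11 with 294 and 3638 CPM in Robo mutants 1 and 2, against 432 and 74.5 CPM in controls 1 and 2. Nupr1, a stress-response gene, ranked 38 with 2.60 and 61.9 CPM in Robo mutants 1 and 2, against 2.80 and 1.59 CPM in controls 1 and 2. Phgdh, an enzyme of serine synthesis further down that ranking, had 3.02 and 42.4 CPM in Robo mutants 1 and 2, against 5.57 and 3.14 CPM in controls 1 and 2. Cd74, the invariant chain of antigen presentation, had 7.26 and 57.7 CPM in Robo mutants 1 and 2, against 37.4 and 5.27 CPM in controls 1 and 2. The immediate early gene Npas4, at rank 46, also kept the order of the libraries, but over a much narrower span. It had 279 and 683 CPM in Robo mutants 1 and 2, against 349 and 109 CPM in controls 1 and 2. Npas4 was not alone among immediate early genes, as Egr2 ranked 44 and Nr4a1 ranked 45. Egr2 kept that order too, while Nr4a1 was higher in Robo mutant 1 than in control 1, at 1047 against 556 CPM.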
